A study of Mus musculus with 15 samples.

Results

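The genes described here are 10 markers of the activated microglial state that is often called disease-associated: Itgax, Clec7a, Cst7, Axl, Lpl, Spp1, Gpnmb, Igf1, Lgals3 and Ch25h. They were taken by symbol from a given list, which was chosen with earlier results of these data known. All 10 were among the 53278 genes of the count table. Bulk RNA was sequenced from the brain cortex of 15 male C57BL/6J mice aged 10 to 20 weeks, with 1 library per mouse and 5 mice per group. Control mice ate control food. Depleted mice ate food with PLX3397, an inhibitor of the receptor CSF1R on which microglia depend, for 9 days. Repopulation mice ate PLX3397 food for 9 days and control food for the following 9 days, and the labels name the same control group for both schedules. The labels give no transgene or genotype other than the strain, and PLX3397 in food reaches CSF1R throughout the body.

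Microglia are macrophages that live in the brain tissue. In ageing, neurodegeneration and demyelination, some of them lower their resting genes and raise a set of genes for lipid handling, phagocytosis and adhesion, a switch that depends in part on the surface receptor TREM2 and its adaptor TYROBP. Most of these genes are also expressed elsewhere, for example Igf1 and Lpl in neurons and Axl in astrocytes and vessel cells, so that a level in whole cortex sums over several cell types. The change of a gene in bulk tissue therefore cannot be assigned to microglia, and fewer cells of a type cannot be told apart from less RNA per cell.

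The results turn on Itgax and Clec7a, the pair of members that changed most. Itgax encodes the integrin subunit CD11c and lies on chromosome 7 from 128129547 to 128150657 on the plus strand. Clec7a encodes dectin-1, a receptor for fungal beta-glucans, and lies on chromosome 6 from 129461591 to 129472779 on the minus strand (GENCODE M21, GRCm38, which is mm10). GENCODE M21 lists Itgax as protein-coding and Clec7a as a polymorphic pseudogene, and neither overlaps another gene. Their start regions are shown because both genes moved together, from RefSeq windows on GRCm38.p6 that run from 250 bases before the annotated start to 50 after it, 5′ to 3′ on the gene's strand, at chr7:128129300-128129599 for Itgax and chr6:129472730-129473029 for Clec7a. Capitals mark 2 short motifs searched on both strands, GAGGAA, a core that the myeloid factor PU.1 can bind, and TGAGTCA, the binding motif of AP-1 factors.
Itgax: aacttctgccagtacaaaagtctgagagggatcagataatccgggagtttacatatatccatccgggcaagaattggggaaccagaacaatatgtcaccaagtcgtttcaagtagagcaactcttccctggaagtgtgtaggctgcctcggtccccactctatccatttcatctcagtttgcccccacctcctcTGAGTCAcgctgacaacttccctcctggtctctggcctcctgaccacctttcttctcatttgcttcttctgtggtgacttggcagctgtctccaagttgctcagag
Clec7a: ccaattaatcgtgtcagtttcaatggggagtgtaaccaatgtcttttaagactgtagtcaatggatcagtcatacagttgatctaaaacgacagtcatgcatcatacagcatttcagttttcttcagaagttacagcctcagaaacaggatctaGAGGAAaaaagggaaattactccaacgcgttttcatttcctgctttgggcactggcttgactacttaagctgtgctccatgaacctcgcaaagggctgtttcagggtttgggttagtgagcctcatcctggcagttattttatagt
The Itgax window held TGAGTCA, which 5.2% of all 32851 windows of this length hold, and the Clec7a window held GAGGAA, which 28.3% hold. The matches start at -56 and -96 relative to the annotated start. RefSeq lists a further Clec7a window, shifted by 6 bases, that holds the same match. GAGGAA was also found in windows of Spp1, Axl and Igf1, and TGAGTCA in that of Gpnmb. Neither motif contains the other, and a match of letters is a description of the sequence. Promoter windows were found for 9 of the 10 members.

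The levels of the members spanned a wide range. Per kilobase of exon, the control mean was highest for Axl at 9.04 ± 0.301 CPM per kb (CPM are counts scaled to the library total, SD, n = 5), followed by Spp1 at 5.52 ± 1.15, Lpl at 2.41 ± 0.351 and Igf1 at 1.01 ± 0.0468 CPM per kb. Next came Ch25h at 0.515 ± 0.364 and Gpnmb at 0.322 ± 0.0307 CPM per kb. The lowest were Lgals3 at 0.161 ± 0.0547, Clec7a at 0.0802 ± 0.063, Cst7 at 0.0716 ± 0.0614 and Itgax at 0.0579 ± 0.0117 CPM per kb. In this order the control libraries of Axl, Spp1, Lpl and Igf1 did not overlap with those of the next gene, except that Igf1 overlapped with Ch25h. Ch25h overlapped with Gpnmb, Gpnmb did not overlap with Lgals3, and the 4 lowest genes overlapped with their neighbours.

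Cst7, which encodes cystatin F, an inhibitor of lysosomal cysteine proteases, was too low to judge. It had 0 to 4 reads in every library, 32 in all 15, and no library reached the 0.348 CPM that the count filter asks of at least 5 libraries. Its counts were 4, 0, 2, 4 and 1 in control mice 1 to 5, 2, 0, 3, 0 and 1 on PLX3397, and 3, 4, 2, 2 and 4 after repopulation. The groups overlapped, and the ratio of pooled reads was 1.51 for repopulation over control (exact 95% interval 0.649 to 3.64, counting error only). The other 9 members passed the filter. Itgax and Lgals3 passed with the fewest libraries allowed, 5 each. For Itgax these were the 5 repopulation libraries, and Clec7a passed through the 5 repopulation and 2 control libraries. A gene that passes through 1 group is likely to differ from the others, so the share of passing members that changed says little by itself.

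**Figure D1:**
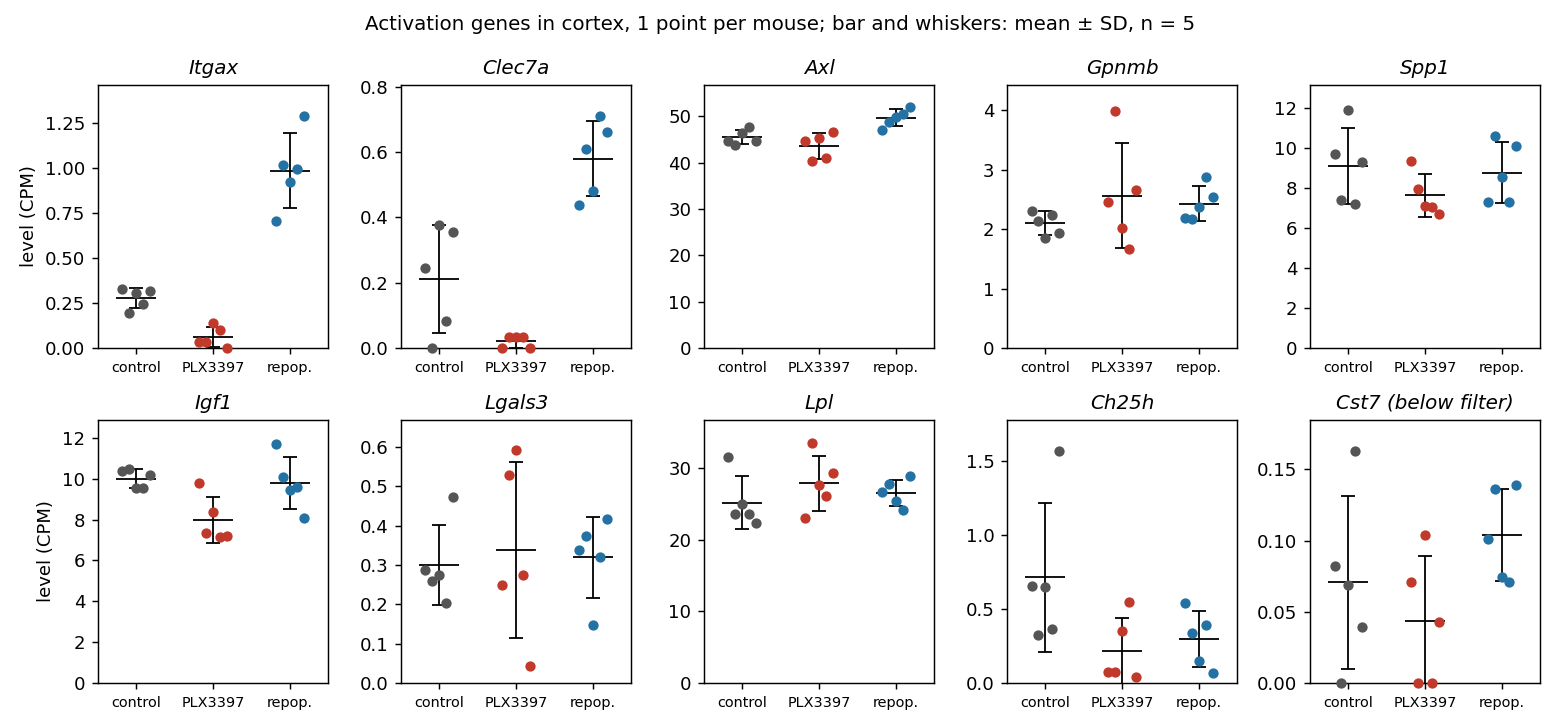
Level of each activation gene in CPM (vertical axis from 0) in control, PLX3397 and repopulation mice (horizontal axis). Points are single mice, and dashes with whiskers give the mean ± SD of 5 mice, cut at 0. Itgax and Clec7a are highest in all 5 repopulation mice, while Axl, Spp1, Lpl, Gpnmb and Lgals3 overlap between PLX3397 and control.

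The marker genes of resting microglia show the depletion. Csf1r stood at 84.8 ± 4.09 CPM in control and 0.215 ± 0.12 CPM on PLX3397, and the sum of 14 homeostatic microglia genes came to 9.54% ± 0.732 of its control level on PLX3397 (SD, n = 5), with mice between 8.64% and 10.4%. After repopulation that sum stood at 110% ± 4.47 of control, with 4 of the 14 genes called higher than control and 2 lower. The 14 genes fell unevenly on PLX3397, with a median log2 fold change of -5.71, so the sum does not measure the share of microglia left. Of the members, 6 kept a mean of at least 79.4% of control on PLX3397. Border macrophage genes moved with the microglial genes: all 6 tested fell on PLX3397 and all 6 rose on repopulation, and the summed level of the 9 listed had a median of 39.4 CPM in control mice, 4.91 CPM in depleted mice, where Pf4 and Ms4a7 were at 0, and 37.4 CPM in repopulation mice. Their part in the changes of the members was not tested. Depth was 23413551 to 48617851 counts per library. Markers of cortical excitatory neurons summed to 4640 to 5540 CPM, and those of striatum to 352 to 654 CPM. PLX3397 mice 1, 2 and 3 and repopulation mouse 4 stood apart with 89.5 to 578 CPM of summed choroid plexus markers. Control libraries had at most 27.2 CPM. Leaving out these 4 libraries keeps only PLX3397 mice 4 and 5 and repopulation mice 1, 2, 3 and 5. A change in that setting thus cannot be told apart from the loss of mice. Member calls that change without these 4 libraries are given beside each result. Genes of the other lists were not examined in that setting.

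Setting PLX3397 mice against control mice asks which members lose reads when microglia are depleted. Itgax, Clec7a and Igf1 fell, and no member rose. In edgeR's quasi-likelihood test over 18369 genes with Benjamini-Hochberg adjustment at 0.05, 3 of the 10 members were lower, 6 were not called and Cst7 was below the filter. Of all tested genes, 16.5% were called, 8.35% as lower and 8.19% as higher. The members that fell had between 9.84% and 79.4% of the control mean left.

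Itgax had 16, 6, 9, 6 and 8 reads in control mice 1 to 5 and 1, 1, 4, 3 and 0 on PLX3397, which is 0.278 ± 0.0564 and 0.0625 ± 0.0567 CPM. Every PLX3397 library was below every control library, a separation that 10.4% of tested genes showed, 5.37% in this direction and 4.99% in the other. The log2 fold change was -2.04 (SE 0.47, adjusted p = 0.00353). Clec7a had 12, 0, 11, 2 and 9 reads in control and 0, 1, 1, 1 and 0 on PLX3397. Control mouse 2 had no read, so the groups overlapped, and control mice 2 and 4 lay well below the other 3. The log2 fold change was -3.06 (SE 0.78, adjusted p = 0.00737), and pooled reads gave a ratio of 0.102 (exact 95% interval 0.02 to 0.323, counting error only) on 3 PLX3397 reads. Without the 4 libraries with most choroid plexus RNA, which left PLX3397 mice 4 and 5, the Clec7a call was lost (-3.24, adjusted p = 0.0943).

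Igf1, insulin-like growth factor 1, which supports neurons and oligodendrocytes, fell slightly. It was at 10.4, 10.5, 9.56, 9.55 and 10.2 CPM in control mice 1 to 5 and at 9.81, 7.36, 8.39, 7.13 and 7.22 CPM on PLX3397. All but PLX3397 mouse 1 were below the lowest control. The log2 fold change was -0.33 (SE 0.09, adjusted p = 0.0167), and 79.4% of the control mean was left. Without PLX3397 mouse 4 the change was -0.29 and not called (adjusted p = 0.051). Without the 4 libraries rich in choroid plexus RNA it was -0.50 (adjusted p = 0.00801).

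The surface receptors Axl and Gpnmb were not called. Axl, a receptor tyrosine kinase that recognises dying cells through bridging proteins, had 44.8, 43.9, 46.4, 47.7 and 44.7 CPM in control and 44.6, 40.3, 45.4, 41.0 and 46.7 CPM on PLX3397. The groups overlapped, with a log2 fold change of -0.06 (95% interval -0.16 to 0.03, adjusted p = 0.398). Gpnmb, a lysosomal and surface glycoprotein, was at 2.10 ± 0.2 CPM in control and 2.56 ± 0.884 CPM on PLX3397 (log2 fold change 0.28, 95% interval -0.09 to 0.64, adjusted p = 0.313). PLX3397 mouse 2 was the highest at 3.98 CPM. That library also had the highest summed choroid plexus markers of its group at 224.9 CPM, against 10.3 to 27.2 CPM in control. In PLX3397 mice 1 to 5, choroid plexus markers summed to 89.47, 224.9, 116.7, 19.11 and 16.55 CPM. Gpnmb was at 2.45, 3.98, 2.02, 1.67 and 2.66 CPM in the same mice. The part of choroid plexus RNA in the Gpnmb level was not tested. In the repopulation group, mouse 4 was highest both for Gpnmb, at 2.87 CPM, and for choroid plexus markers, at 577.5 CPM. Without the 4 libraries rich in choroid plexus RNA the log2 fold change of Gpnmb on PLX3397 was 0.01 (adjusted p = 0.978), and without PLX3397 mouse 2 alone it was 0.06 (adjusted p = 0.861).

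The secreted proteins Spp1 and Lgals3 were not called either. Spp1, osteopontin, had 9.68, 7.41, 11.9, 7.22 and 9.28 CPM in control and 9.32, 7.93, 7.10, 7.06 and 6.70 CPM on PLX3397. The groups overlapped, and the log2 fold change was -0.26 (95% interval -0.55 to 0.04, adjusted p = 0.236). It shares some exon sequence with Gm42793, so some of its reads may belong there. Lgals3, the sugar-binding protein galectin-3, was near the lower limit of measurement, with 5 to 14 reads in control libraries and 1 to 17 on PLX3397. Its log2 fold change of 0.21 had a 95% interval from -0.63 to 1.05 (adjusted p = 0.785), and the spread between PLX3397 mice was wide. In the PLX3397 group the mice with 15 and 17 reads, 2 and 3, were also those with most choroid plexus RNA. PLX3397 mouse 1, at 89.47 CPM of choroid plexus markers, had 7 reads. Repopulation mouse 4, at 577.5 CPM, had 9 reads, within the 4 to 12 of its group. The part of choroid plexus RNA in the Lgals3 counts was not tested. The direction of the Lgals3 change turned without the 4 libraries rich in choroid plexus RNA, to -0.81 (adjusted p = 0.452). That fit kept only PLX3397 mice 4 and 5, with 8 and 1 Lgals3 reads.

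Among the lipid enzymes, Lpl, lipoprotein lipase, which frees fatty acids from lipoproteins, was at 25.2 ± 3.68 CPM in control and 27.9 ± 3.86 CPM on PLX3397. The ranges overlapped, 22.3 to 31.6 CPM against 23.1 to 33.5 CPM, and the log2 fold change was 0.14 (95% interval -0.08 to 0.35, adjusted p = 0.402). Ch25h, cholesterol 25-hydroxylase, which makes the oxysterol 25-hydroxycholesterol, varied widely within groups. It had 32, 10, 19, 9 and 40 reads in control mice 1 to 5 and 2, 2, 10, 16 and 1 on PLX3397. PLX3397 mice 3 and 4 lay within the control range and the other 3 below it. The log2 fold change was -1.64 (SE 0.60, 95% interval -2.90 to -0.38), which was not called after adjustment (adjusted p = 0.073). Without PLX3397 mouse 4 it was called (-2.32, adjusted p = 0.0197), and DESeq2 called it as well (-1.70, adjusted p = 0.0281). It was smaller and not called without control mouse 5, the highest control (-1.19, adjusted p = 0.164), and without the 4 libraries rich in choroid plexus RNA (-1.15, adjusted p = 0.427). Some Ch25h reads may fall in exon sequence that it shares with Gm26902, a non-coding gene on the opposite strand, since no source used here says whether counting used strand.

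**Figure D2:**
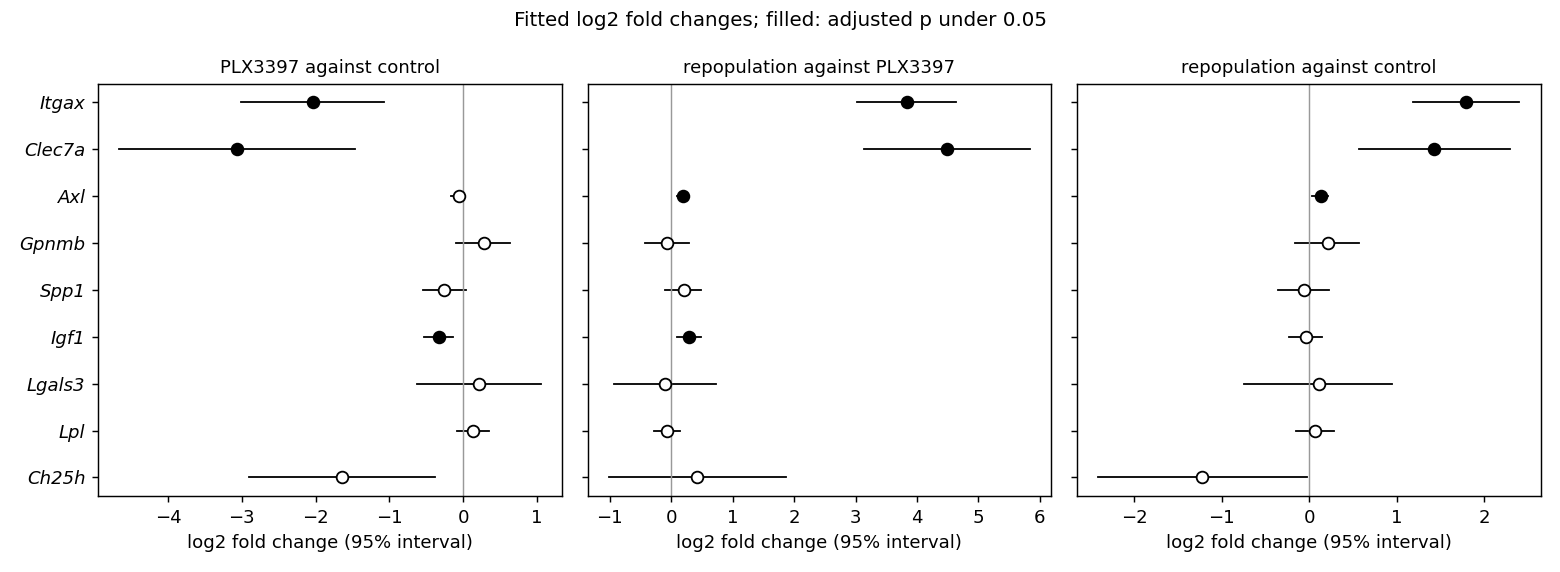
Log2 fold change with 95% interval (horizontal axis) for the 9 members that passed the count filter (vertical axis), in 3 comparisons of 5 with 5 mice, each panel with its own scale. Filled points passed an adjusted p of 0.05 and open points did not. Itgax and Clec7a lie at -2.04 and -3.06 on PLX3397 against control and at 1.79 and 1.43 in repopulation against control.

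The second comparison, repopulation against PLX3397, asks what comes back once the inhibitor is withdrawn. Itgax, Clec7a, Axl and Igf1 rose and no member fell, 4 of 10, while 16.6% of all tested genes were called, 7.61% as higher and 8.98% as lower. The share of calls that were higher was 45.9%, but 59.6% with length and GC trends removed and 69.4% without the 4 libraries rich in choroid plexus RNA. Itgax rose to 21, 30, 25, 28 and 37 reads in repopulation mice 1 to 5, and Clec7a to 13, 18, 13, 20 and 19. For both genes every repopulation library was above every PLX3397 library, a separation found in 11.8% of tested genes, 5.57% in this direction and 6.25% in the other. The log2 fold changes were 3.84 for Itgax (SE 0.39, adjusted p = 4.93e-08) and 4.49 for Clec7a (SE 0.66, adjusted p = 1.92e-05).

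Axl rose by a small amount, to 47.1, 48.8, 49.9, 50.5 and 52.0 CPM. The lowest of these exceeded the highest PLX3397 library, and the log2 fold change was 0.19 (SE 0.05, adjusted p = 0.00491). Igf1 returned to 11.7, 10.1, 9.45, 9.62 and 8.10 CPM, which overlapped with PLX3397 (log2 fold change 0.29, SE 0.10, adjusted p = 0.0348). This Igf1 call was lost when only the 2 groups were fitted (0.30, adjusted p = 0.0562) and with length and GC trends removed (0.29, adjusted p = 0.052). It was also lost without PLX3397 mouse 2, 4 or 5 or repopulation mouse 1, 2, 3 or 4, each alone, with log2 fold changes of 0.22 to 0.31 and adjusted p of 0.0511 to 0.131. Without the 4 libraries rich in choroid plexus RNA it was 0.46 (adjusted p = 0.0339). The Axl call was lost without the 4 libraries rich in choroid plexus RNA (0.18, adjusted p = 0.11). Lpl (-0.07, 95% interval -0.28 to 0.15), Spp1 (0.20, -0.10 to 0.49), Gpnmb (-0.07, -0.43 to 0.29), Lgals3 (-0.10, -0.94 to 0.73) and Ch25h (0.42, -1.02 to 1.86) were not called. The directions of Gpnmb (0.12), Lgals3 (0.91) and Ch25h (-0.18) turned without the 4 libraries rich in choroid plexus RNA, again with no call. Only mice 4 and 5 of the PLX3397 group were left there.

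The third comparison, repopulation against control, asks whether the returning state differs from the untreated one. Itgax and Clec7a were above the control level, Axl was slightly above it, and the other 6 tested members were not called. Of all tested genes, 29.1% were called, 13.9% as higher and 15.2% as lower (56.4% of calls higher with length and GC trends removed, 47.7% as fitted), so that 3 of 10 members is near the share of all genes called. This comparison and that of PLX3397 with control use the same 5 control mice. Every repopulation library was above every control library for Itgax, at 0.707 to 1.29 CPM against 0.195 to 0.327 CPM, and for Clec7a, at 0.438 to 0.71 CPM against 0 to 0.377 CPM. Groups did not overlap for 22.3% of tested genes, 10.5% in this direction and 11.8% in the other. The fitted fold was 3.47 for Itgax (log2 fold change 1.79, SE 0.29, adjusted p = 5.75e-05) and 2.69 for Clec7a (1.43, SE 0.42, adjusted p = 0.0113). Pooled reads gave ratios of 3.47 (exact 95% interval 2.47 to 4.97) and 2.71 (1.80 to 4.16), which cover counting error only. Leaving out any 1 of the 15 libraries kept both calls, with log2 fold changes of 1.68 to 1.89 for Itgax and 1.11 to 1.70 for Clec7a. Itgax entered the test only through its 5 repopulation libraries, and Clec7a through 5 repopulation and 2 control libraries. Their higher level after repopulation, over control or PLX3397, is thus not independent of the filter. The stability of these calls adds no independent support.

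Axl was at 49.7 ± 1.84 CPM after repopulation and 45.5 ± 1.51 CPM in control, and the groups overlapped (log2 fold change 0.13, SE 0.05, adjusted p = 0.0363). This call was lost when control mouse 1, 2, 3 or 5 or repopulation mouse 2, 3, 4 or 5 was left out alone, with log2 fold changes of 0.11 to 0.13 and adjusted p of 0.0536 to 0.104. It was also lost without the 4 libraries rich in choroid plexus RNA (0.12, adjusted p = 0.0711) and without a count filter (0.12, adjusted p = 0.0741). Igf1 stood at 97.4% of control (-0.04, 95% interval -0.23 to 0.15), Spp1 at 96.4% (-0.06, -0.35 to 0.23) and Lpl at 106% (0.07, -0.15 to 0.28). The intervals of Gpnmb (0.21, -0.16 to 0.57) and Lgals3 (0.11, -0.74 to 0.95) also included no change. Ch25h remained at 41.6% of the control mean, with 16, 10, 4, 11 and 2 reads, and was not called (-1.22, 95% interval -2.41 to -0.03, adjusted p = 0.119). Its control mean depends on control mouse 5 at 1.57 CPM, without which the log2 fold change was -0.77.

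Since the homeostatic microglia genes together stood slightly above control after repopulation, the members were also counted per 1000 reads of the 14 summed homeostatic genes. Itgax had 0.93, 0.548, 0.853, 0.739 and 0.947 reads per 1000 in control mice 1 to 5 and 1.94, 2.65, 2.41, 2.66 and 3.17 after repopulation. Clec7a had 0.61 ± 0.476 and 1.51 ± 0.29 reads per 1000. Neither gene overlapped between control and repopulation on this scale. The share of all genes that separate on it was not counted. Itgax passed the count filter through its 5 repopulation libraries alone, and Clec7a through 5 repopulation and 2 control libraries. The separation is thus not independent of the filter. PLX3397 mice had 1.88 ± 1.73 (0 to 4.08) Itgax reads and 0.631 ± 0.577 Clec7a reads per 1000, from 9 and 3 reads in all. They overlapped with control for both genes and with repopulation for Itgax. The sum divided by fell to 9.54% of control on PLX3397, where Axl stood at 1330 ± 145 and Gpnmb at 77.4 ± 25.9 reads per 1000. The PLX3397 values are therefore not levels per remaining microglial cell. In control and repopulation mice, Axl was at 132 ± 7.93 and 130 ± 3.23 reads per 1000, Lpl at 72.7 ± 9.67 and 69.6 ± 3.78, and Gpnmb at 6.06 ± 0.657 and 6.35 ± 0.79. Igf1 at 29.0 ± 1.61 and 25.7 ± 4.32, Spp1 at 26.2 ± 4.91 and 22.8 ± 3.37, Lgals3 at 0.868 ± 0.317 and 0.833 ± 0.258, and Ch25h at 2.08 ± 1.54 and 0.792 ± 0.523 also overlapped.

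**Figure D3:**
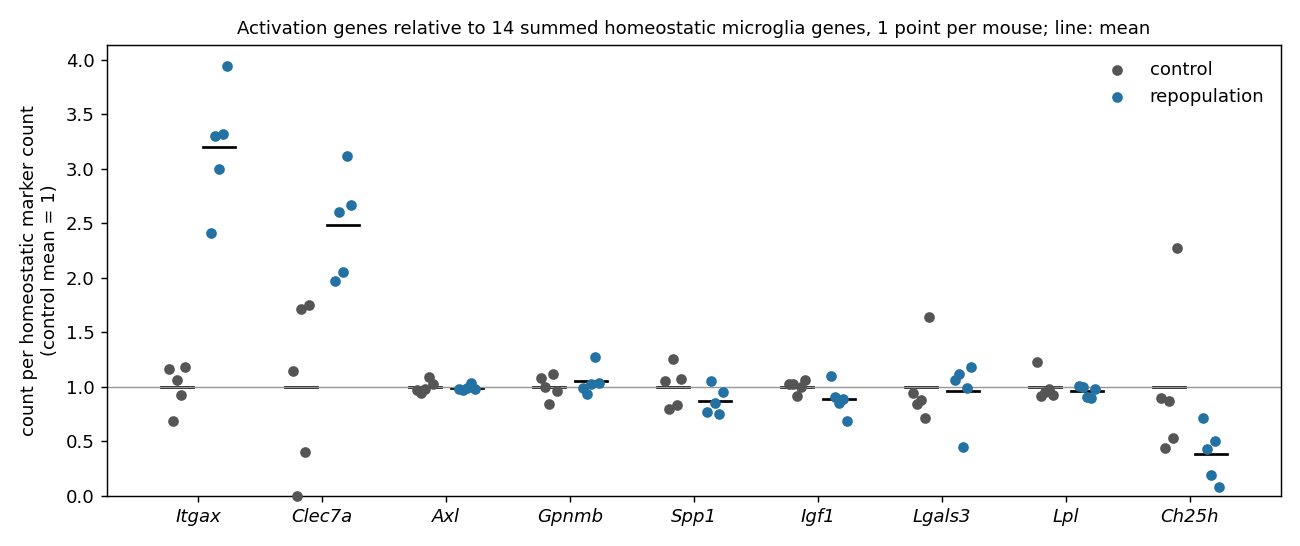
Reads of each of 9 members divided by the summed reads of 14 homeostatic microglia genes in the same library, relative to the control mean (vertical axis, from 0), for control and repopulation mice (points, line at the mean of 5). Itgax and Clec7a lie above the control range in all 5 repopulation mice, and the other 7 overlap with control. The share of all genes that separate on this scale was not counted.

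The genes whose profile over the 15 libraries was most like each member's were found from the root mean square difference of log2 CPM relative to control. A prior count of 2 was added first, which shrinks changes of genes near the lower limit of measurement. Clec7a on PLX3397 lay at -1.38 on this scale, against -3.06 as fitted. Likeness among such low genes is therefore partly set by the prior count. Closest to Itgax were H2-Oa (0.453 log2 units), a subunit of the MHC class II regulator H2-O, AU020206 (0.473) and Clec7a (0.544). Closest to Clec7a were Itgax (0.544), the interferon-inducible gene Ifi209 (0.63) and H2-Oa (0.654). H2-Oa had a mean of 0.147 CPM in control, 0.00682 CPM on PLX3397 and 0.518 CPM after repopulation. Axl lay closest to the kinase gene Abl1 (0.0389), Ssh2 (0.052) and Wdr81 (0.0528), Lpl to the glutamate receptor gene Gria1 (0.0636), Cyp7b1 (0.0932) and Slc4a7 (0.0966), and Igf1 to Srpk3 (0.106), Calhm2 (0.109) and the corepressor gene Tle3 (0.111). Spp1 was nearest to Slc13a3 (0.146), Col9a2 (0.154) and Gpr182 (0.162), and Gpnmb to Map3k15 (0.156), Lor (0.159) and Pde11a (0.188). The nearest genes of Lgals3 and Ch25h were 0.396 and 0.778 log2 units away, Etaa1os and H2-Ab1.

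Other genes of the activation programme were read from a list of 31, of which 28 were tested. On PLX3397, 12 fell and 3 rose, with a median log2 fold change of -0.16 against 0.00 over all genes. Tyrobp (4.43 ± 0.393 to 0.0423 ± 0.0461 CPM, log2 fold change -6.54, adjusted p = 5.39e-16), Trem2 (-3.25, adjusted p = 1.51e-14) and the lysosomal gene Cd68 (-1.60, adjusted p = 2.09e-10) had the smallest adjusted p-values among these. Between PLX3397 and repopulation, 10 rose and 3 fell (median 0.00). After repopulation, 5 were higher and 9 lower than control (median -0.06, against 0.01 over all genes). Tyrobp was at 4.65 ± 0.516 CPM (0.07, adjusted p = 0.752) and Trem2 at 7.70 ± 0.485 CPM (-0.01, adjusted p = 0.952). Cd52, a leukocyte surface glycopeptide, was higher, at 1.66 ± 0.237 against 0.646 ± 0.179 CPM (1.34, adjusted p = 7.92e-05), as was B2m, the light chain of MHC class I (0.34, adjusted p = 2.42e-05). Fth1, the ferritin heavy chain, was lower (-0.37, adjusted p = 1.2e-06).

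**Figure D4:**
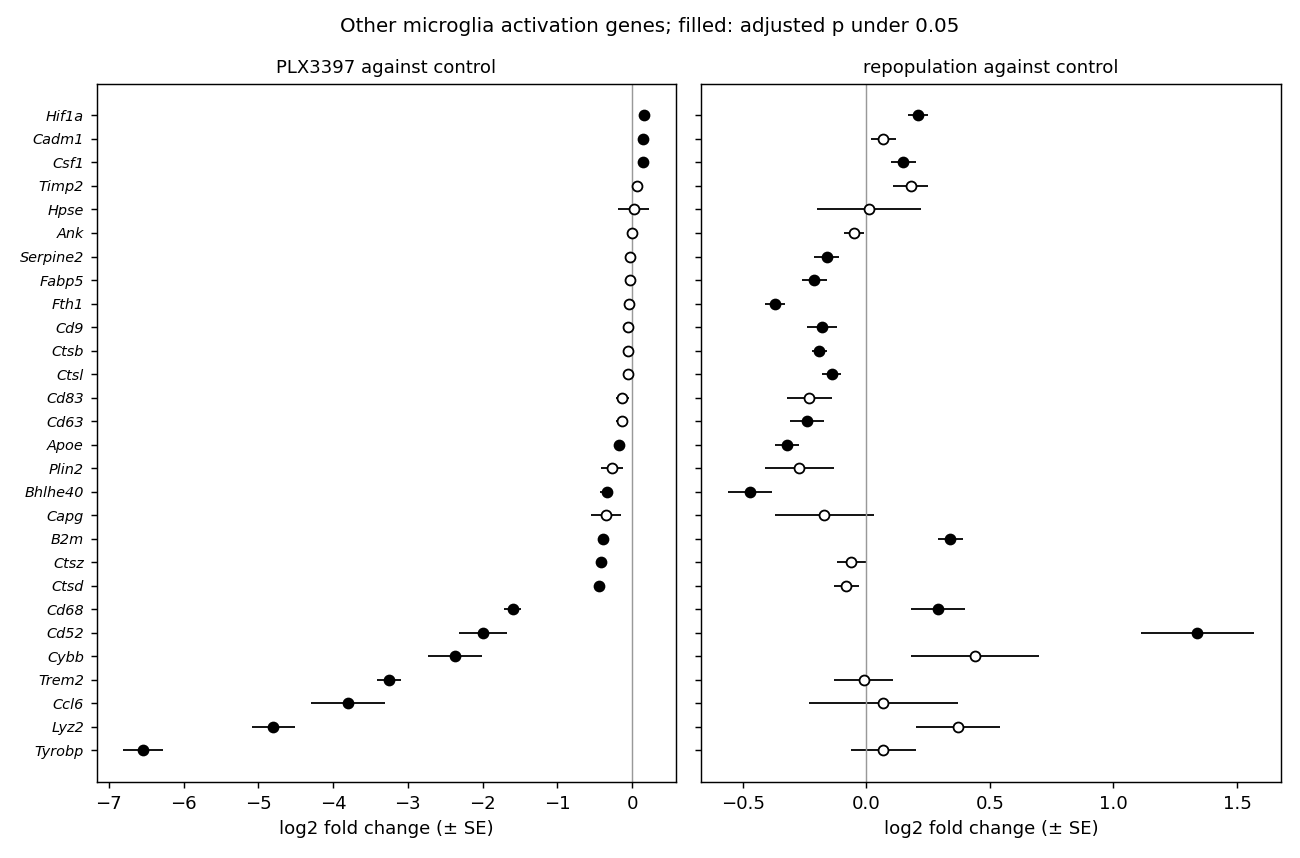
Log2 fold change ± SE (horizontal axis) of the 28 tested genes of a wider activation list (vertical axis, ordered by the PLX3397 change), for PLX3397 against control and repopulation against control, with separate scales. Filled points passed an adjusted p of 0.05. Tyrobp is lowest on PLX3397 at -6.54, and Cd52 is highest after repopulation at 1.34.

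Of the 3 integrin chains listed with Itgax, 2 fell on PLX3397 and both rose on repopulation. Itgb2, the beta chain that pairs with CD11c, fell from 4.09 ± 0.438 to 0.217 ± 0.0964 CPM on PLX3397 (-4.20, adjusted p = 9.31e-15) and stood above control after repopulation, at 5.81 ± 0.703 CPM (0.51, adjusted p = 0.00264). Itgam, the alternative alpha chain CD11b, had 0 reads in all 5 PLX3397 libraries and was at 6.43 ± 0.554 CPM after repopulation against 5.78 ± 0.783 CPM in control (0.15, adjusted p = 0.342). Of 5 genes downstream of dectin-1, 3 fell on PLX3397 and 3 rose on repopulation: the kinase gene Syk (-1.35), the adaptor gene Card9 (-0.74) and the phospholipase gene Plcg2 (-0.92) were those that fell (adjusted p = 8.39e-09, 6.37e-05 and 1.2e-05). After repopulation, Plcg2 was higher than control (0.63, adjusted p = 0.000178) and Malt1 as well (0.22, adjusted p = 0.0114), while Syk was at -0.04 (adjusted p = 0.841).

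Around Axl, 4 related receptors and bridging proteins were tested. On PLX3397, 1 of them fell, the ligand gene Pros1 (-0.40, adjusted p = 0.00023), while Gas6, the bridging protein of Axl, was at 0.01 (adjusted p = 0.946). After repopulation Mertk was higher (0.15, adjusted p = 0.0391) and Tyro3 lower (-0.16, adjusted p = 0.00836). Of 7 osteopontin receptor chains, Itgb5 fell (-0.96, adjusted p = 7.86e-12) and Itga4 rose (0.26, adjusted p = 0.0229) on PLX3397, and Itgav (0.18) and Itga4 (0.38) were higher than control after repopulation. Of 11 genes for IGF receptors and binding proteins, Igfbp7 fell (-0.31) and Igf2r rose (0.13) on PLX3397. Igf1r itself was at -0.03 in both comparisons with control (adjusted p = 0.682 and 0.643). Igfbp4 was lower (-0.44, adjusted p = 7.35e-05) and Insr and Igf2r higher after repopulation.

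For galectin-3, Lgals3bp, the gene of its secreted binding protein, which interferons also induce, rose while Lgals3 was not called. It was at 10.9 ± 0.817 CPM in control, 11.1 ± 1.35 on PLX3397 and 31.7 ± 7.7 after repopulation (1.53 against control, SE 0.15, adjusted p = 8.1e-06), with no overlap between repopulation and control. Lgals9 fell on PLX3397 (-0.95) and was above control after repopulation (0.49, adjusted p = 0.000377). Of the 5 galectin-related genes, 2 were thus higher than control after repopulation and 1 lower, Lgals1 (-0.31, adjusted p = 0.037). Around Lpl, 7 of 10 genes were tested, and the receptor gene Vldlr rose on PLX3397 (0.18, adjusted p = 0.00873) and was above control after repopulation (0.27, adjusted p = 0.000123), when Lrp1 was higher as well (0.20, adjusted p = 0.000218). Around Ch25h, Gpr183, the receptor for the oxysterol made from its product, fell from 1.05 ± 0.0735 to 0.0667 ± 0.0538 CPM (-3.92, adjusted p = 3.5e-08) and was back at 1.02 ± 0.32 CPM. Cyp27a1 (-0.52) and Cyp46a1 (-0.09) fell on PLX3397 too. After repopulation 2 of the 6 tested were lower than control, Cyp46a1 (-0.15, adjusted p = 0.000631) and Insig2 (-0.17, adjusted p = 0.0209), and none was higher. The proteases that cystatin F acts on or that process it, Ctsc (-1.05), Ctsh (-0.85) and Lgmn (-0.36), fell on PLX3397 and were not called against control after repopulation, while Ctsl, the remaining 1 of 4, was then lower (-0.14, adjusted p = 0.0134).

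Among 14 regulators, 6 fell on PLX3397 and none rose. They included the PU.1 gene Spi1 (2.67 ± 0.412 to 0.038 ± 0.0391 CPM, -6.04, adjusted p = 1.04e-13), besides Tyrobp and Trem2, which the activation list also holds. Mitf, a factor that acts on Gpnmb, was not called (0.08, adjusted p = 0.548). After repopulation Sall1 was higher than control (0.24, adjusted p = 0.00311) and Bhlhe40 lower (-0.47, adjusted p = 0.00147), while Spi1 was at 0.15 (adjusted p = 0.512).

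Markers of other cells that could hold these transcripts were measured beside them. No blood myeloid gene of 8 passed the filter, and their summed median was 0.614 CPM in control, 0.209 CPM in depleted mice and 0.539 CPM in repopulation mice, with Ly6c2 at 0 in control and Retnlg at 0 in depleted mice. Of 7 dendritic cell genes, which matter for Itgax, 2 were tested and 5 were below the filter. Neither tested gene changed on PLX3397 or between PLX3397 and repopulation, and 1 was lower in repopulation than in control. The summed medians were 25.1, 24.3 and 23.6 CPM in control, depleted and repopulation mice. With 5 of the 7 genes below the filter, these sums say little about dendritic cells. All 6 oligodendrocyte precursor genes fell on PLX3397, with a summed median of 161 CPM in control, 86.6 CPM in depleted mice and 163 CPM in repopulation mice. Of 7 oligodendrocyte genes, 5 rose on PLX3397 and all 7 fell between PLX3397 and repopulation. Igf1 and Axl can also come from neurons, astrocytes and vessel cells. On PLX3397, 3 of 7 inhibitory neuron genes, 1 of 6 excitatory neuron genes, 3 of 9 endothelial genes and 1 of 8 mural cell genes fell, and 1 of 8 astrocyte genes rose. Between PLX3397 and repopulation, 4 endothelial genes rose and 1 fell, 3 mural cell genes rose, and 5 astrocyte genes and 1 inhibitory neuron gene fell. Against control, repopulation mice had 1 endothelial gene higher and 4 lower, 1 mural cell gene higher and 2 lower, 3 astrocyte genes lower, 2 inhibitory neuron genes higher and 3 lower, and 2 excitatory neuron genes lower. No choroid plexus gene of 8 tested was called in any of the 3 comparisons. The part of these cells in the members' levels was not tested.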

How the data were processed

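The authors deposited raw read counts by gene symbol for 15 libraries. STAR, FastQC, MultiQC, DESeq and DESeq2 and the build mm10 are named in the submitters' processing notes, without roles or versions. Which counter and annotation they used, and whether it used strand, is not given in the sources used here. Totals were 23413551 to 48617851 counts per library, so 1 CPM stands for 23.4 to 48.6 reads, and members below 1 CPM carry large counting error. No 2 libraries were identical (chi-square per degree of freedom within groups 2.53 to 9.95).

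Genes were kept by filterByExpr (minimum count 10, which left 18369), scaled by TMM and tested with edgeR 4.0.16 in R 4.3.3 (quasi-likelihood F test, robust, 15 libraries in 1 fit, no covariate because no batch is labelled). The Benjamini-Hochberg adjustment was over all genes tested. CPM are counts over the library total times the TMM factor. The test was checked on simulated counts. DESeq2 1.42.0 and other settings were alternatives. Gene positions, lengths and GC content came from GENCODE M21, by symbol, for 97.8% of tested genes.

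The members and the lists were chosen with earlier results of these data known. All 10 members are named; from other lists, up to 3 called genes of lowest adjusted p in either comparison with control, any called partner gene, and 3 genes of most similar profile per member. Gas6, Igf1r and Mitf lie outside that rule and were named after their values were seen. Pf4, Ms4a7, Ly6c2 and Retnlg were named because all libraries of a group had 0 reads. H2-Oa and Ifi209 belong to families with close relatives, so their counts are uncertain. Of genes in 2 lists, Trem2, Tyrobp, Bhlhe40, Sall1 and Ctsl count under both. Some genes of these lists are not reported here.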

Additional observations from a re-analysis of the deposited data

Results flagged for a closer look

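Ch25h in the control group had 1 mouse far from the others: control mouse 5 stood at 1.57 CPM and the next at 0.655 CPM. Its gap was 0.736 of the group's range, above the 95% limit of 0.71 for 5 samples. This was 1 of 30 groups of 5 libraries examined, and chance alone flags about 1 in 20.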

How the results depend on the processing

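All 3 comparisons kept a member count within 1.5 times the main one with RLE size factors, DESeq2, removal of length and GC trends, and each library left out. Members lower on PLX3397 numbered 5 without a count filter, and 1 with a filter of 1 CPM in 5 libraries or with only the 2 groups compared, where Itgax and Clec7a were filtered out. The 1 CPM filter passed 5 members and left 2 called in repopulation against PLX3397 and 1 against control. The setting without the 4 libraries above 50 CPM in choroid plexus markers was chosen after seeing the data, like the length and GC correction. There 849 genes were called in repopulation against PLX3397 against 3047, with only mice 4 and 5 left in the PLX3397 group. After removal of length and GC trends, 59.6% of the calls in that comparison were higher, against 45.9%, and 56.4% in repopulation against control, against 47.7%. Without the choroid-rich libraries 69.4% of the calls in repopulation against PLX3397 were higher. Without a count filter Ch25h was called lower on PLX3397 (-1.64, adjusted p = 0.000295) and after repopulation (-1.23, adjusted p = 0.00508), and Spp1 lower on PLX3397 (-0.26, adjusted p = 0.045), while Axl was no longer called higher after repopulation. The cause was not tested. Same-numbered mice did not deviate together (correlations -0.131 to 0.103 over 15 pairs). No pairing by number was thus seen, though such correlations cannot exclude a small shared effect. With the replicate block 2832, 2801 and 5080 genes were called, against 3038, 3047 and 5345, and 3, 4 and 3 members. Low counts limit Cst7, Clec7a, Lgals3, Ch25h and Itgax, each with at most 195 reads over 15 libraries.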
